A study of Mus musculus with 12 samples.

Results

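The Fc receptor genes are 6 named genes, Fcgr1, Fcgr3, Fcgr4, Fcer1g, Fcgr2b and Fcgrt, taken by symbol from a count table of 46517 mouse genes, and all 6 were found in it once. They were listed by name, with earlier results of these data known. They were followed in bulk RNA sequencing of macrophages sorted from the aorta and from fat of adult wild type C57/BL6 mice. LYVE1+ macrophages of both tissues had less Fcgr4 mRNA than LYVE1- macrophages, Fcgrt mRNA was higher in LYVE1+ macrophages when both tissues were averaged, and no call was made for the other 4 genes in any of the 6 comparisons.

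The 4 groups were LYVE1+ aortic, LYVE1- aortic, LYVE1+ fat and LYVE1- fat macrophages, with 3 libraries each. Every group was gated as live CD45+ cells positive for CD64, MerTK, CD11b and F4/80 and split by surface LYVE-1, which binds hyaluronan and marks lymphatic endothelium as well as some tissue macrophages. CD64 is the protein of Fcgr1, so all sorted cells were chosen for carrying it. Aortic cells came from 30 mice and fat cells from the epididymal and subcutaneous depots of 20 mice. Whether a group's libraries stem from separate pools is not stated in the labels. Each p-value therefore covers the spread between these libraries, which may be technical. In bulk samples, fewer cells of a type and less RNA per cell cannot be told apart.

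Libraries held 5049936 to 29792301 counts, and levels are given as CPM, counts relative to library size after TMM scaling. The 5 genes of the gate summed to 2820 to 3030 CPM in LYVE1+ and 2770 to 3030 CPM in LYVE1- aorta, and to 1970 to 2690 CPM in LYVE1+ and 2200 to 2980 CPM in LYVE1- fat. Lyve1 itself had 2744, 2044 and 2807 CPM in LYVE1+ aorta and 877, 1323 and 868 CPM in LYVE1- aorta, then 1497, 2193 and 2095 CPM in LYVE1+ fat and 230.1, 570 and 611 CPM in LYVE1- fat. The sort therefore separated levels of Lyve1 mRNA, and LYVE1- libraries still contained it. In the edgeR test described below, Lyve1 was called in fat (log2 fold change 2.04, adjusted p = 0.00383). It was not called in aorta (1.31, adjusted p = 0.108). Both fat libraries numbered 1 stood apart, with 8.85% mitochondrial counts in LYVE1+ and 12.1% in LYVE1- fat, against 1.79% to 3.2% in the other 10 libraries. Their summed erythroid markers were 25100 CPM in LYVE1+ and 5210 CPM in LYVE1- fat, against at most 1400 CPM elsewhere. Calls and ratios of the Fc receptor genes that move without this pair are given both ways.

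Fc receptors bind the constant part of antibodies and couple antibody-coated particles to uptake and signalling. In mice the activating receptors Fcgr1 (CD64, high affinity for monomeric IgG), Fcgr3 (low affinity, for immune complexes) and Fcgr4 (binding a narrower set of IgG subclasses) have no signalling motif of their own in the chain that binds IgG. They signal through the common gamma chain, Fcer1g, whose ITAM recruits the kinase Syk. Fcgr2b is the single inhibitory receptor of the family and carries an ITIM that recruits the phosphatase SHIP. Fcgrt, the neonatal Fc receptor, pairs with beta-2-microglobulin, binds IgG and albumin in acidic endosomes and returns them to the surface or carries them across the cell, and it takes no part in the activating and inhibitory balance. Macrophages are known to carry all of these receptors, and Fcgr4 is also a feature of nonclassical monocytes.

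Coordinates are on GRCm38 with GENCODE M21 annotation. A cluster on chromosome 1 holds Fcgr2b (chr1:170958617-170976547, minus strand), Fcgr4 (chr1:171018920-171029761, plus strand), Fcgr3 (chr1:171051174-171064935, minus strand) and Fcer1g (chr1:171229572-171234365, minus strand). Fcgr1 lies at chr3:96282909-96293969 and Fcgrt at chr7:45092990-45103851, both on the minus strand. Each value below is the count over the annotated gene. Fcgr2b and Fcgr3 are alike in the part that encodes the extracellular region. Of the distinct 51-base stretches of their transcripts, 6.91% in Fcgr2b and 9.41% in Fcgr3 also occurred in a transcript of another gene, and none did in the other 4 genes. For Fcgr2b, 2.87% were shared with Fcgr3. The handling of reads that map to several genes was not given in the sources used here, so the split between this pair is uncertain by reads of that kind. On the opposite strand, Fcgr2b overlaps Gm38204, which had 15 counts over all libraries beside 145923 for Fcgr2b, and Fcgrt overlaps Gm45669, which is not used here.

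The 120 bases before the start of the genes for the IgG-binding chains are shown to set the promoter of Fcgr4, which differed between the sorts, beside those of Fcgr1, Fcgr3 and Fcgr2b, for which no difference was called. They are RefSeq sequences on GRCm38.p6, written on the strand of the gene, 5′ to 3′. The starts are those of RefSeq and can differ from the GENCODE bounds given above. The windows of Fcgr3 and Fcgr2b lie inside the GENCODE bounds of these genes. All 6 genes matched the RefSeq promoter table, and for Fcgr3, which has more than 1 listed start, the first listed is shown. The 250 bases before each start were searched on both strands for GAGGAA, the core bound by PU.1, a factor of myeloid cells. Capitals mark matches, and TTCCTC is GAGGAA read on the other strand.
Fcgr4, chr1:171018806-171018925, plus strand: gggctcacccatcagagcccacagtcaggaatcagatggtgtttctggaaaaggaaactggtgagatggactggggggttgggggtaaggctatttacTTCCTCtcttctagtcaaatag
Fcgr1, chr3:96293970-96294089, minus strand: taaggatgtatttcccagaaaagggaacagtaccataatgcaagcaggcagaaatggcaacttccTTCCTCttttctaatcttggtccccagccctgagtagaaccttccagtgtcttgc
Fcgr3, chr1:171059404-171059523, minus strand: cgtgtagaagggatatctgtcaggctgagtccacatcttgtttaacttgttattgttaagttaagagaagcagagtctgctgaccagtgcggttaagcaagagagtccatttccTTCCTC
Fcgr2b, chr1:170976072-170976191, minus strand: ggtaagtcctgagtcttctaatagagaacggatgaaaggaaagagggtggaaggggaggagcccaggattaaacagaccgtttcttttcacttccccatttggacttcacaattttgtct

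The GAGGAA core began 22 bases before the RefSeq start in Fcgr4, 55 in Fcgr1 and 6 in Fcgr3, and was not in the searched window of Fcgr2b, Fcer1g or Fcgrt. Among all 32851 RefSeq promoter windows of that length, 23.3% held it. The 3 activating receptor genes thus held the core, and its part in the Fcgr4 difference was not tested. These matches describe the letters only.

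Compared per kilobase of merged exons, Fcer1g, Fcgrt and Fcgr3 lay above Fcgr2b, Fcgr1 and Fcgr4 in all 12 libraries. Fcer1g was highest in 9 libraries, with 841 to 1326 CPM per kb, and Fcgrt was highest in the other 3, with a range of 282 to 1832 CPM per kb. Fcgr3 lay at 433 to 1053 CPM per kb, below Fcgrt in all 6 LYVE1+ libraries and above it in all 6 LYVE1- libraries. The gene for the inhibitory receptor, Fcgr2b, held rank 4 in all 12, at 104 to 189 CPM per kb. Fcgr1 held rank 5 in 11 libraries, at 27.2 to 78.9 CPM per kb. Fcgr4 was lowest in 11 libraries, at 4.01 to 51.02 CPM per kb, and had the widest range relative to its size. With the length of the longest protein-coding transcript in place of merged exons, a choice made after seeing the data, each gene held each rank in the same number of libraries.

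**Figure D1:**
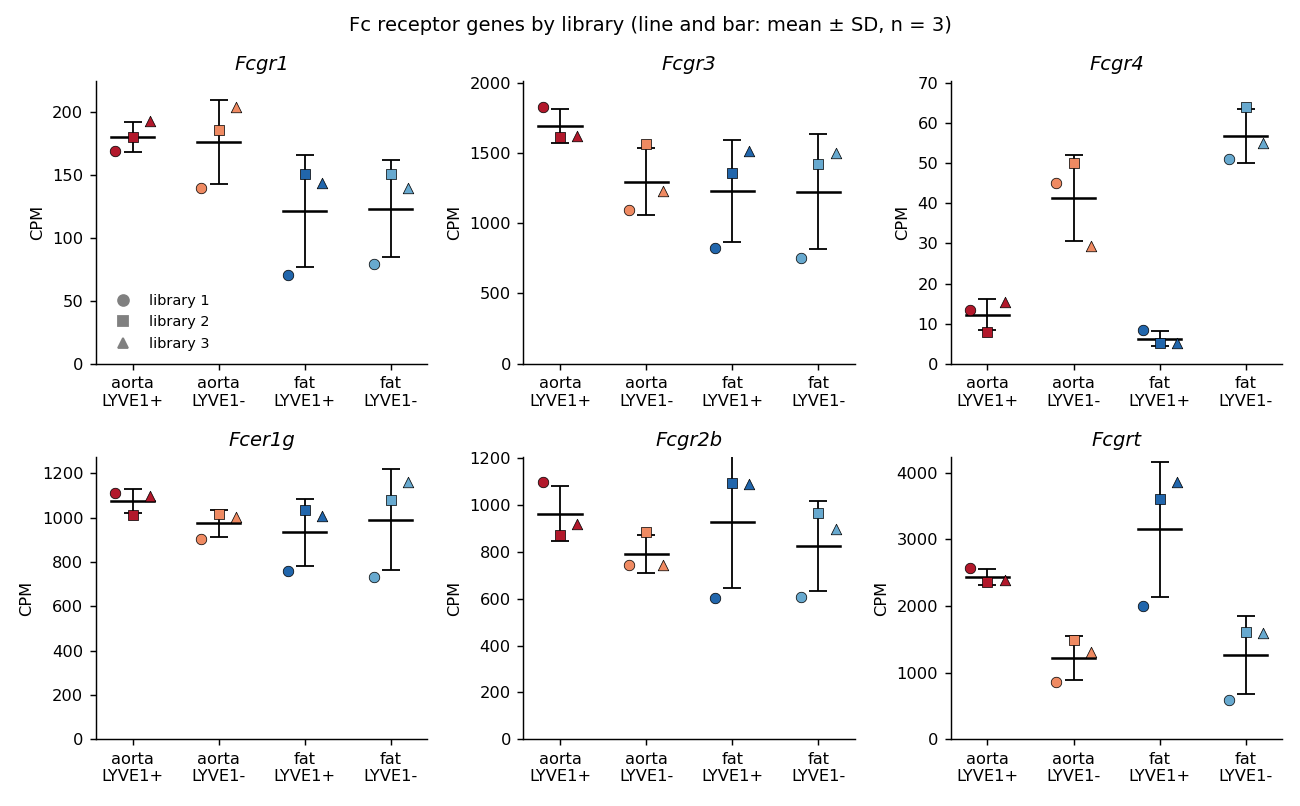
CPM of each Fc receptor gene (y axis, starting at 0, own scale per panel) in each library, by tissue and LYVE1 sort (x axis). Points are libraries, shaped by library number, and the line and bar are the mean ± SD (n = 3). The LYVE1+ libraries lie below the LYVE1- libraries for Fcgr4 in both tissues and above them for Fcgrt in both tissues.

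In the aorta, LYVE1+ against LYVE1-, 1 of the 6 genes passed an adjusted p of 0.05 in edgeR's quasi-likelihood test with Benjamini-Hochberg adjustment over 14216 genes. That gene was Fcgr4, which was lower, and 0.542% of all genes tested passed in either direction. In fat the gene that passed was again Fcgr4, also lower, 1 of 6 beside 3.93% of all genes. Averaged over the tissues, 2 of 6 passed, Fcgr4 lower and Fcgrt higher, beside 6.34% of all genes. In the test of whether the LYVE1 difference itself differed between aorta and fat, 0 of 6 passed, beside 0.155% of all genes, and 1 of the 6, Fcgr4, had an unadjusted p under 0.05, beside 6.06% of all genes. The median log2 fold change of the 6 genes was 0.21 in aorta and close to 0 in fat, beside medians over all genes of -0.013 in aorta and 0.005 in fat. DESeq2 also called none of the 6 in the test between tissues.

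Fcgr4 had 13.3, 7.97 and 15.4 CPM in LYVE1+ aorta, against 44.9, 50.0 and 29.4 CPM in LYVE1- aorta. All 3 LYVE1+ aortic libraries lay below all 3 LYVE1- ones. These CPM rest on 106 to 265 counts per LYVE1+ library and 484 to 1473 counts per LYVE1- library. The log2 fold change was -1.76 (SE 0.27, 95% interval -2.35 to -1.17, adjusted p = 0.0124), which is 3.39-fold lower in LYVE1+. In fat, Fcgr4 had 8.45, 5.29 and 5.04 CPM in LYVE1+ libraries, against 51.1, 64.1 and 55.2 CPM in LYVE1- libraries. Again the groups did not overlap, and the highest LYVE1+ fat value, 8.45 CPM, was in the library that stood apart. Counts per library there were 44 to 61 in LYVE1+ and 399 to 653 in LYVE1- fat. For LYVE1+ fat library 1, with 44 counts, the exact Poisson interval was 6.14 to 11.3 CPM, and such intervals cover counting error only. The log2 fold change in fat was -3.21 (SE 0.3, interval -3.86 to -2.57, adjusted p = 0.000243), or 9.28-fold lower in LYVE1+.

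The average over tissues was -2.49 (SE 0.2, adjusted p = 3.05e-05), so LYVE1+ macrophages had 5.61-fold less Fcgr4 mRNA by this measure. The difference in fat was larger than in aorta by 1.45 on the log2 scale (SE 0.39, interval 0.61 to 2.3), but this did not pass adjustment (adjusted p = 0.315). Mean levels were 12.2 ± 3.82 CPM in LYVE1+ aorta, 41.4 ± 10.7 CPM in LYVE1- aorta, 6.26 ± 1.9 CPM in LYVE1+ fat and 56.8 ± 6.66 CPM in LYVE1- fat (SD, n = 3 each). Ranked from low to high, LYVE1+ fat came before LYVE1+ aorta, then LYVE1- aorta and LYVE1- fat. The neighbours of the same sort in this order had no call between them.

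The Fcgr4 call in fat held in all 20 alternatives run, with log2 fold changes of -3.53 to -3.09. In the aorta it held in 17 of 20. It was lost without LYVE1+ aorta library 1 (-1.82, adjusted p = 0.0676), without LYVE1- aorta library 1 (-1.70, adjusted p = 0.0653), and with the prefix of the library identifier as a covariate (-1.43, adjusted p = 0.55). That prefix, whose meaning the labels do not give, is RHH for LYVE1+ aorta library 3 and for all LYVE1- aortic libraries and RMM for the rest. Within RHH, Fcgr4 had 15.4 CPM in the 1 LYVE1+ library and 29.4 to 50.0 CPM in the 3 LYVE1- libraries, the same direction with too few samples for a test. All fat libraries share RMM, so the prefix covariate bore on the fat comparison only through the shared fit. The same holds for leaving out a library of the other tissue. Such alternatives were therefore weak checks of the Fcgr4 calls.

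Monocyte markers moved with Fcgr4. Ccr2, a chemokine receptor of classical monocytes, was called lower in LYVE1+ in aorta (log2 fold change -4.4, adjusted p = 0.00198) and in fat (-3.11, adjusted p = 0.00237). The 5 classical monocyte markers summed to 20.9 to 23.0 CPM in LYVE1+ and 155 to 303 CPM in LYVE1- aorta, and to 75.6 to 278 CPM in LYVE1+ and 653 to 806 CPM in LYVE1- fat. Of these 5 genes, 1 was called in each tissue, which was Ccr2. Beside the calls of these and the following markers, 0.542% of all genes tested were called in aorta and 3.93% in fat. The 6 nonclassical monocyte markers summed to 158 to 382 CPM in LYVE1+ and 424 to 707 CPM in LYVE1- aorta, and to 138 to 544 CPM in LYVE1+ and 479 to 793 CPM in LYVE1- fat. Without both fat libraries numbered 1, the fat sums were 146 and 138 CPM in LYVE1+ and 559 and 479 CPM in LYVE1- cells. They then did not overlap. None of the 6 was called in aorta, and Cx3cr1 and Spn were called lower in LYVE1+ fat (-4.04 and -1.61). Cx3cr1 overlaps other genes on both strands, so its counts are uncertain. None of the markers on either list was without counts in any group. The 6 neutrophil genes summed to 407 to 530 CPM in LYVE1+ and 417 to 606 CPM in LYVE1- aorta, and to 558 to 671 CPM in LYVE1+ and 220 to 482 CPM in LYVE1- fat. Most of these sums was Mmp9, with means of 468 CPM in LYVE1+ and 520 CPM in LYVE1- aorta, and 610 CPM in LYVE1+ and 374 CPM in LYVE1- fat. Of the defining genes of neutrophils, S100a9 and Ly6g had no counts in either aortic group, and S100a8 stayed at or below 1.15 CPM in every library.

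In aorta, the summed markers of dendritic cells, eosinophils and mast cells also moved with Fcgr4, whereas in fat these sums overlapped between the sorts with all libraries. The 7 dendritic cell markers summed to 310.0 to 336 CPM in LYVE1+ and 406 to 506 CPM in LYVE1- aorta, and to 421 to 532 CPM in LYVE1+ and 238 to 501 CPM in LYVE1- fat. Without both fat libraries numbered 1, the fat sums were 421 and 424 CPM in LYVE1+ and 247 and 238 CPM in LYVE1- cells. The LYVE1+ fat sums then lay above the LYVE1- ones, the reverse of aorta. Clec9a, which encodes a dendritic cell receptor for dead cells, was called lower in LYVE1+ aorta (adjusted p = 0.0316), with no count in LYVE1+ and 2.61, 1.66 and 8.56 CPM in LYVE1- aorta. It overlaps Clec1b, so its counts are uncertain. In fat, 2 of the 7, Cd209a and Siglech, were called higher in LYVE1+. The 6 eosinophil markers summed to 1.78 to 3.61 CPM in LYVE1+ and 10.6 to 29.4 CPM in LYVE1- aorta, and to 6.35 to 39.9 CPM in LYVE1+ and 5.59 to 22.4 CPM in LYVE1- fat. Prg2, a granule protein gene of eosinophils, was called lower in LYVE1+ aorta (adjusted p = 0.0137), with no count in LYVE1+ and 14.6, 8.82 and 5.83 CPM in LYVE1- aorta. Epx and Ear1 also had no counts in LYVE1+ aorta, and Epx had none in either fat group. Of the mast cell markers, 5 were tested, and all 5 were lower in LYVE1+ aorta without overlap and without a call. In fat, 4 of the 5 were higher in LYVE1+ and 1 was lower, without a call. The part of monocytes and of these cells in the Fcgr4 difference was not tested.

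Fcgr1, the gated receptor, had 169, 180.3 and 193 CPM in LYVE1+ aorta and 139.6, 186 and 204 CPM in LYVE1- aorta. It had 70.4, 151 and 143 CPM in LYVE1+ fat and 79.5, 150.5 and 139.9 CPM in LYVE1- fat. The sorts overlapped in both tissues, and in each fat group library 1 was lowest. The log2 fold change was 0.03 in aorta (interval -0.57 to 0.64) and -0.02 in fat (interval -0.63 to 0.59), so changes within these bounds are not excluded. These bounds are no limit of detection. With 3 libraries a group, larger changes also went uncalled after adjustment, such as Fcgrt at 1.00 in aorta. Because all cells were selected for CD64, these levels describe gated cells and not the tissue at large.

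Fcgr3 had 1828, 1616 and 1623 CPM in LYVE1+ aorta and 1094, 1563 and 1231 CPM in LYVE1- aorta. All LYVE1+ values lay above all LYVE1- values there, without a call (log2 fold change 0.38, interval -0.2 to 0.97, adjusted p = 0.641). In fat it had 822, 1358 and 1512 CPM in LYVE1+ and 751, 1419 and 1496 CPM in LYVE1- libraries, which overlapped (0.01, interval -0.58 to 0.6). Across the 6 genes, 3 did not overlap between the aortic sorts (Fcgr3, Fcgr4 and Fcgrt), beside 22.4% of all genes tested, and 2 did not overlap between the fat sorts (Fcgr4 and Fcgrt), beside 18.9%.

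Fcer1g, the gamma chain on which the activating receptors depend for signalling, had 1112, 1013 and 1097 CPM in LYVE1+ aorta and 905, 1016 and 1003 CPM in LYVE1- aorta. In fat it had 760, 1034 and 1008 CPM in LYVE1+ and 735, 1081 and 1159 CPM in LYVE1- libraries. The groups overlapped in both tissues. Its intervals were the narrowest of the 6 genes, with log2 fold changes of 0.14 in aorta (-0.26 to 0.54) and -0.09 in fat (-0.49 to 0.31). Summed per kilobase, the 3 receptors of the gamma chain came close to its own level, with log2 ratios of Fcer1g to their sum of 0.22 ± 0.065 in LYVE1+ aorta, 0.41 ± 0.18 in LYVE1- aorta, 0.52 ± 0.24 in LYVE1+ fat and 0.54 ± 0.17 in LYVE1- fat (SD, n = 3 each).

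**Figure D2:**
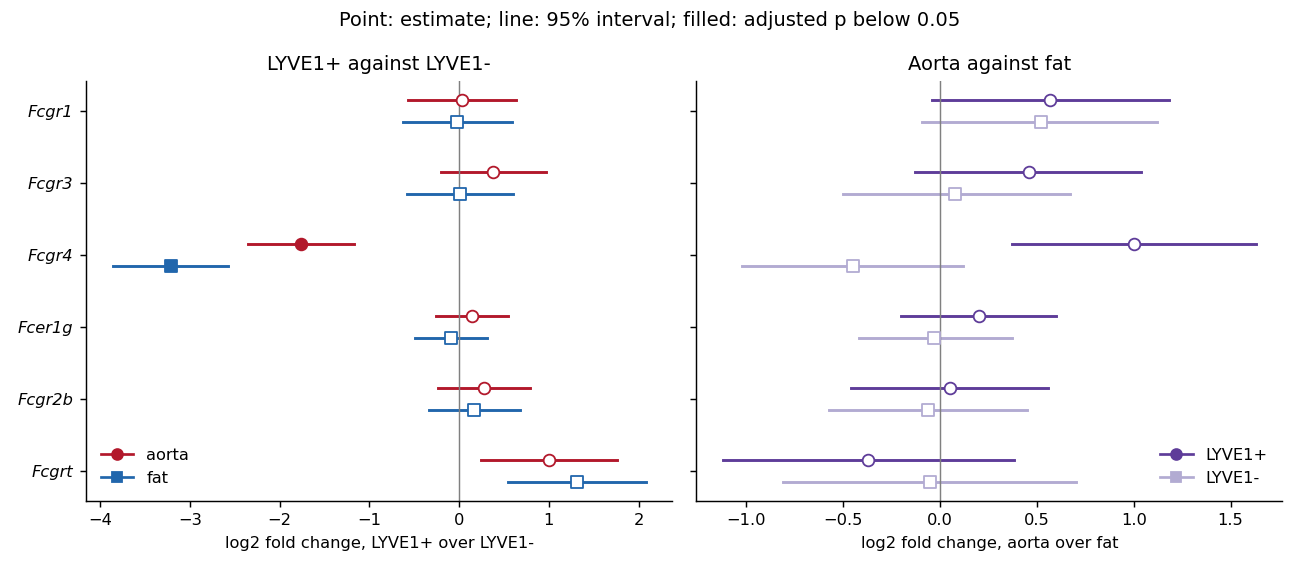
Log2 fold changes of the 6 genes (x axis) with 95% intervals from the edgeR fit, LYVE1+ over LYVE1- in aorta and fat (left) and aorta over fat in LYVE1+ and LYVE1- cells (right). Filled symbols passed an adjusted p of 0.05. The filled points are Fcgr4 at -1.76 in aorta and -3.21 in fat, and no aorta to fat difference is filled.

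Fcgr2b, the inhibitory receptor, had 1095, 872 and 919 CPM in LYVE1+ aorta and 741, 886 and 745 CPM in LYVE1- aorta. In fat it had 601, 1091 and 1088 CPM in LYVE1+ and 605, 966 and 898 CPM in LYVE1- libraries. The sorts overlapped in both tissues. The log2 fold changes were 0.28 in aorta (interval -0.23 to 0.79, adjusted p = 0.705) and 0.17 in fat (-0.34 to 0.68, adjusted p = 0.8). The lowest of all 12 libraries was LYVE1+ fat library 1, at 601 CPM. Fcgr2b is also the IgG receptor of B cells. The 6 B cell markers summed to 726 to 984 CPM in LYVE1+ and 679 to 980 CPM in LYVE1- aorta. In fat they summed to 896 to 1300 CPM in LYVE1+ and 570 to 681 CPM in LYVE1- cells, without overlap. Most of these sums was Ighm, with means of 799 and 737 CPM in LYVE1+ and LYVE1- aorta and 884 and 562 CPM in fat. None of the 6 was called in either tissue. The part of B cells in Fcgr2b levels was not tested.

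The balance of activating to inhibitory receptors was computed in each library as a log2 ratio of CPM per kb, as a description with no test. Summed Fcgr1, Fcgr3 and Fcgr4 over Fcgr2b gave 2.58, 2.74 and 2.69 in LYVE1+ aorta and 2.49, 2.73 and 2.66 in LYVE1- aorta. It gave 2.29, 2.16 and 2.31 in LYVE1+ fat and 2.27, 2.47 and 2.63 in LYVE1- fat. The sorts overlapped in both tissues, with LYVE1+ minus LYVE1- means of 0.04 in aorta and -0.20 in fat. Without both fat libraries numbered 1 the fat sorts did not overlap, and the difference of means was -0.32. The LYVE1+ aortic values all lay above the LYVE1+ fat values, whereas the LYVE1- aortic and fat values overlapped. The ratio of Fcgr3 alone to Fcgr2b was close to the summed ratio. It was 2.55 ± 0.076 in LYVE1+ aorta, 2.44 ± 0.13 in LYVE1- aorta, 2.15 ± 0.086 in LYVE1+ fat and 2.27 ± 0.21 in LYVE1- fat. The fat sorts overlapped for it, but not without both fat libraries numbered 1, where the difference of means was -0.25. By number, LYVE1+ minus LYVE1- in fat was 0.14 for number 1, -0.24 for number 2 and -0.26 for number 3.

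The balance looked otherwise for Fcgr4 taken alone. Its log2 ratio to Fcgr2b was -4.14 ± 0.44 in LYVE1+ aorta and -2.08 ± 0.33 in LYVE1- aorta, and -4.99 ± 0.91 in LYVE1+ fat and -1.63 ± 0.24 in LYVE1- fat, with no overlap of the sorts in either tissue. Fcgr4 made up 0.922% ± 0.28 of the summed activating receptors in LYVE1+ aorta and 3.93% ± 1.0 in LYVE1- aorta. In fat it made up 0.752% ± 0.5 in LYVE1+ and 6.05% ± 1.8 in LYVE1- cells. The ratio of Fcgr1 to Fcgr2b was -1.25 ± 0.25 in LYVE1+ aorta, -1.01 ± 0.28 in LYVE1- aorta, -1.8 ± 0.12 in LYVE1+ fat and -1.6 ± 0.14 in LYVE1- fat. The sorts overlapped in both tissues. Without both fat libraries numbered 1, the fat sorts did not overlap for the Fcgr1 ratio, and the difference of means was -0.21. Between same-numbered fat libraries the Fcgr1 ratio was lower in LYVE1+ each time. The log2 differences were -0.16 for number 1, -0.17 for number 2 and -0.24 for number 3. These ratios depend on gene length: with the longest coding transcript the summed ratio was 2.3 ± 0.082 in LYVE1+ aorta, 2.24 ± 0.12 in LYVE1- aorta, 1.89 ± 0.08 in LYVE1+ fat and 2.08 ± 0.19 in LYVE1- fat, and the differences between sorts were 0.06 in aorta and -0.19 in fat.

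**Figure D3:**
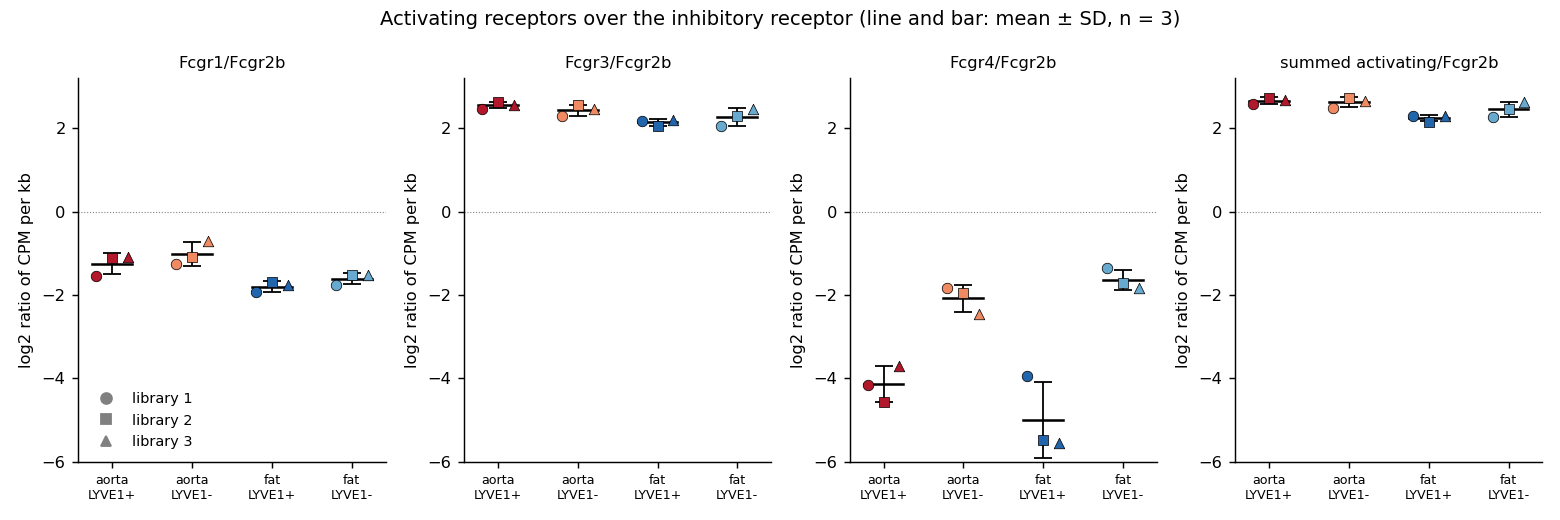
Log2 ratios of CPM per kb of each activating receptor, and of their sum, to Fcgr2b (y axis) by tissue and LYVE1 sort (x axis). Points are libraries and the line and bar are the mean ± SD (n = 3). The sorts separate for Fcgr4 over Fcgr2b and overlap for the summed ratio.

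Fcgrt had 2574, 2355 and 2385 CPM in LYVE1+ aorta, against 855, 1486 and 1315 CPM in LYVE1- aorta. The groups did not overlap. The log2 fold change was 1.00 (SE 0.35, interval 0.24 to 1.76), a level 2.0-fold that of LYVE1- cells, but it did not pass adjustment (adjusted p = 0.288). In fat it had 1993, 3600 and 3852 CPM in LYVE1+ libraries, against 593, 1609 and 1594 CPM in LYVE1- libraries. These did not overlap either, and library 1 was lowest in both sorts. The log2 fold change was 1.31 (SE 0.35, interval 0.55 to 2.08), and the adjusted p of 0.0596 missed the threshold. Averaged over tissues Fcgrt was higher in LYVE1+ by 1.16 (SE 0.25, interval 0.62 to 1.7, adjusted p = 0.015), or 2.23-fold, with a difference between tissues of -0.31 (interval -1.38 to 0.75).

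In fat, same-numbered LYVE1+ and LYVE1- libraries deviated together, although libraries 2 and 3 also did so across numbers. With the replicate number as a block Fcgrt passed there (1.39, adjusted p = 0.00208), where 915 genes were called against 558 without the block. Without both fat libraries numbered 1, Fcgrt passed in aorta (1.00, adjusted p = 0.00341) and in fat (1.22, adjusted p = 0.0021). It also passed in fat without LYVE1+ fat library 1 alone (1.56, adjusted p = 0.0141). The average over tissues missed the threshold without LYVE1- aorta library 1 (1.06, adjusted p = 0.051) and with the identifier prefix as a covariate (1.14, adjusted p = 0.0862). Within RHH, Fcgrt had 2385 CPM in the 1 LYVE1+ aortic library and 855 to 1486 CPM in the 3 LYVE1- libraries.

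Fcgrt averaged 2438 ± 118 CPM in LYVE1+ aorta, 1219 ± 326 CPM in LYVE1- aorta, 3148 ± 1010 CPM in LYVE1+ fat and 1266 ± 582 CPM in LYVE1- fat (SD, n = 3 each). LYVE1+ fat was thus highest, and aorta and fat overlapped within each sort. Vascular endothelium is another known site of Fcgrt, and its 6 markers summed to 7.77 to 35.3 CPM in LYVE1+ and 18.2 to 32.0 CPM in LYVE1- aorta, and to 5.72 to 47.2 CPM in LYVE1+ and 10.9 to 33.1 CPM in LYVE1- fat. Without both fat libraries numbered 1, these fat sums were 5.72 and 10.7 CPM in LYVE1+ and 10.9 and 13.6 CPM in LYVE1- cells. They then did not overlap. The 5 lymphatic endothelial markers summed to 13.9 to 42.1 CPM in LYVE1+ and 9.29 to 18.2 CPM in LYVE1- aorta, and to 3.02 to 15.9 CPM in LYVE1+ and 1.67 to 7.55 CPM in LYVE1- fat. Of the lymphatic markers, 4 were tested and 2 were called higher in LYVE1+ in the average over tissues, the transcription factor gene Prox1 (adjusted p = 0.0207) and the chemokine gene Ccl21a (adjusted p = 0.0154). Over all genes tested, 6.34% were called in that average. Prox1 was also called higher in LYVE1+ fat (adjusted p = 0.0138), with 4.03, 1.39 and 1.11 CPM in LYVE1+ and 0, 0.0981 and 0 CPM in LYVE1- fat, and it overlapped between the sorts in aorta. Ccl21a had 6.57, 18.2 and 5.69 CPM in LYVE1+ and 0.334, 1.22 and 1.76 CPM in LYVE1- aorta, and 5.76, 0.26 and 1.008 CPM in LYVE1+ and 0.256, 0.0981 and 0.199 CPM in LYVE1- fat. The part of vascular and lymphatic endothelium in the Fcgrt difference was not tested.

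B2m, which encodes the light chain of the neonatal receptor, had 2941 to 3348 CPM in LYVE1+ and 3706 to 3720 CPM in LYVE1- aorta, and 2265 to 3309 CPM in LYVE1+ and 2189 to 3240 CPM in LYVE1- fat. It was not called in either tissue (-0.23 in aorta and 0.09 in fat).

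Between tissues, 0 of the 6 genes passed in LYVE1+ cells, beside 3.0% of all genes tested, and 0 of 6 passed in LYVE1- cells, beside 2.48%. At an unadjusted p under 0.05 there was 1 of 6 in LYVE1+ cells, Fcgr4, beside 15.3% of all genes, and 0 in LYVE1- cells, beside 15.2%. DESeq2 called 1, Fcgr4, in LYVE1+ cells. Fcgr4 was at a log2 fold change of 1.00 in LYVE1+ aorta over LYVE1+ fat (interval 0.37 to 1.63, adjusted p = 0.0943), with overlapping libraries, and at -0.45 in LYVE1- aorta over LYVE1- fat (interval -1.02 to 0.12, adjusted p = 0.454). The LYVE1+ difference passed in 5 of 20 alternatives, among them the fit without both fat libraries numbered 1 (1.24, adjusted p = 0.0336) and those without LYVE1+ fat library 1 (1.24, adjusted p = 0.0476) or LYVE1+ aorta library 2 (1.23, adjusted p = 0.0459). Groups did not overlap for 2 genes in LYVE1+ cells (Fcgr1 and Fcgr3), beside 20.6% of all genes, and for 1 gene in LYVE1- cells (Fcgr4), beside 21.1%. Fcgr1 was at 0.57 in LYVE1+ aorta over fat (interval -0.04 to 1.18) and 0.52 in LYVE1- (interval -0.09 to 1.12), and in both sorts fat library 1 was lowest. In LYVE1- cells all aortic libraries carry the prefix RHH and all fat libraries RMM, so tissue and prefix cannot be told apart there.

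Of the 6963 other genes with a mean log2 CPM of at least 4, the 3 whose profile over the 12 libraries lay nearest to that of Fcgr4 were Vcam1, Rgs1 and Slamf8. Nearness was the root mean square difference of log2 CPM, after centring each gene on its mean, and was 0.272 for Vcam1, 0.445 for Rgs1 and 0.505 for Slamf8, against a median of 1.37 over all genes compared. Vcam1, an adhesion molecule, averaged 67.9 ± 2.95 CPM in LYVE1+ and 215 ± 31.5 CPM in LYVE1- aorta, and 44.4 ± 16.0 CPM in LYVE1+ and 383 ± 63.2 CPM in LYVE1- fat. Rgs1, a regulator of G protein signalling, averaged 214 ± 31.8 CPM in LYVE1+ and 605 ± 102 CPM in LYVE1- aorta, and 109 ± 30.5 CPM in LYVE1+ and 577 ± 136 CPM in LYVE1- fat. Slamf8, a myeloid surface receptor, averaged 33.2 ± 3.07 CPM in LYVE1+ and 121 ± 17.9 CPM in LYVE1- aorta, and 19.2 ± 12.3 CPM in LYVE1+ and 104 ± 38.6 CPM in LYVE1- fat (SD, n = 3 each). All 3 had the order of sorts seen for Fcgr4 in both tissues, and Vcam1 also had its highest mean in LYVE1- fat. Because the 3 were chosen for nearness to Fcgr4 in these same 12 libraries, this likeness follows from the choice and is no separate result. Gm43109, which overlaps Vcam1 on the other strand, had 14 counts over all libraries beside 28495 for Vcam1.

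**Figure D4:**
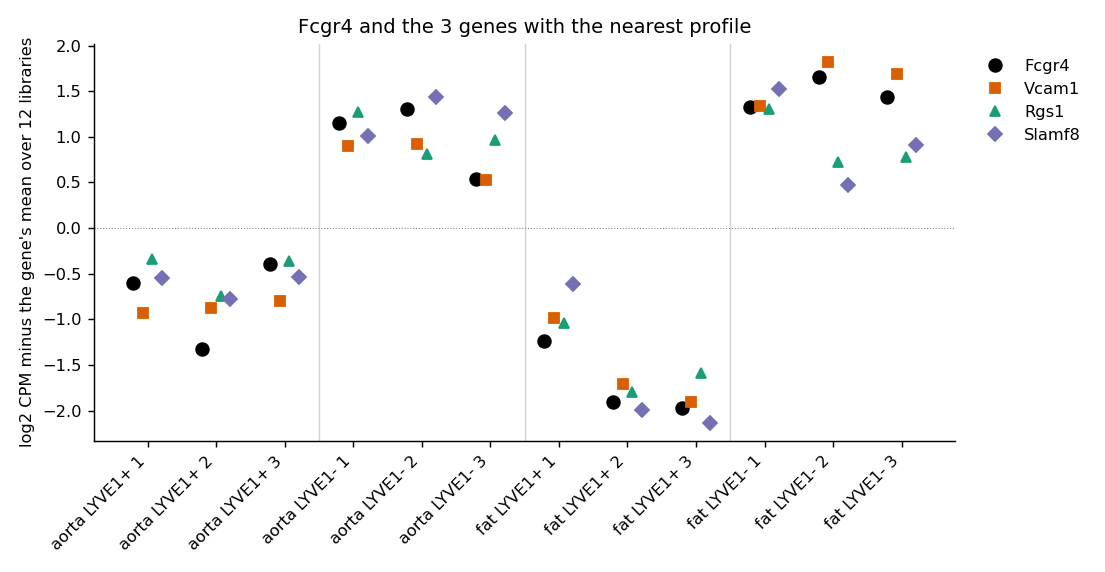
Log2 CPM of Fcgr4, Vcam1, Rgs1 and Slamf8 in each library (x axis), each gene centred on its mean over 12 libraries (y axis). All LYVE1+ libraries lie below 0 and all LYVE1- libraries above 0 for the 4 genes. Vcam1, Rgs1 and Slamf8 were chosen for nearness to Fcgr4 in these same libraries.

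The downstream signalling genes were taken from lists of the pathway. Beside the calls of each list by sort, 0.542% of all genes tested were called in aorta, 3.93% in fat and 6.34% in the average. Of 18 ITAM kinases and adaptors, all tested, none was called in aorta and 1, Lat2, was called lower in LYVE1+ fat, with list medians of -0.26 in aorta and -0.38 in fat beside -0.013 and 0.005 over all genes. Lat2, a linker for signalling from immune receptors, had 25.5, 5.63 and 3.83 CPM in LYVE1+ fat and 78.3, 49.1 and 51.8 CPM in LYVE1- fat (-2.44, SE 0.54, adjusted p = 0.0233). The fat sorts did not overlap for Lat2. Its call was lost when only the fat groups were fitted (adjusted p = 0.129) and without LYVE1+ fat library 2 or 3 or LYVE1- fat library 1 or 3 (adjusted p of 0.0508 to 0.108). Without strand its reads cannot be told apart from those of Rfc2, which overlaps it on the other strand and had 7395 counts over all libraries beside 5426 for Lat2. Without both fat libraries numbered 1, 2 of the 18 were called lower in LYVE1+ aorta, Lat2 (-1.67) and the kinase gene Fgr (-2.76), and 2 in LYVE1+ fat, Lat2 (-3.40) and the kinase gene Fyn (-2.92). Without this pair, calls over all genes also rose in both tissues, with the numbers given in the last section. Averaged over tissues with all libraries, Lat2 and the phospholipase gene Plcg2 (-0.4, adjusted p = 0.0383) were called lower. Syk, the kinase recruited to the ITAM, was at -0.13 in aorta and 0.02 in fat without a call.

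Of 5 genes for gamma chain partners and the related adaptor DAP12, 4 were tested and none was called in either tissue. Tyrobp, which encodes DAP12, had 780 to 904 CPM in LYVE1+ and 645 to 894 CPM in LYVE1- aorta, and 779 to 906 CPM in LYVE1+ and 806 to 917 CPM in LYVE1- fat, which overlapped. Clec4e (Mincle, a receptor that signals through the gamma chain) had 59.3, 28.2 and 96.7 CPM in LYVE1+ and 379, 154 and 102 CPM in LYVE1- aorta. In fat it had 75.1, 28.3 and 31.8 CPM in LYVE1+ and 360.4, 149.6 and 132 CPM in LYVE1- libraries. It was lower in every LYVE1+ library than in any LYVE1- library of the same tissue, and it was called in the average over tissues only (-2.02, SE 0.42, adjusted p = 0.0122). Without both fat libraries numbered 1, Clec4e passed in aorta (-1.78, adjusted p = 0.0468) and in fat (-2.23, adjusted p = 0.037).

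On the inhibitory side, all 9 ITIM phosphatases and inhibitory adaptors were tested and none was called in either tissue. Inpp5d, which encodes SHIP, had 349 to 411 CPM in LYVE1+ and 353 to 442 CPM in LYVE1- aorta, and 262 to 346 CPM in LYVE1+ and 309 to 359 CPM in LYVE1- fat. The adaptor Dok2, which overlaps Xpo7 on the other strand, was at 0.14 in aorta and -0.44 in fat without a call. Of 10 actin genes of the phagocytic cup none was called by sort, although Coro1a passed without both fat libraries numbered 1 (-0.52 in aorta and -0.84 in fat). Elmo1, which helps activate Rac, was called higher in aorta than fat in LYVE1+ (0.78, adjusted p = 0.0108) and LYVE1- cells (0.63, adjusted p = 0.0378). Its LYVE1+ call was lost without LYVE1+ fat library 2 or 3 (0.0598 and 0.0548 as adjusted p). Its LYVE1- call was lost with the prefix as a covariate (0.81, adjusted p = 0.635) and without any 1 of the LYVE1- libraries. None of the 5 NADPH oxidase genes was called by sort, with Cybb at -0.4 in aorta and -0.45 in fat and Cyba at 0.19 and -0.17.

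Of 14 other Fc receptor and Fc receptor-like genes, 9 were tested and Fcrls was the 1 called. Fcrls, a receptor-like gene best known from mouse microglia, had 1247, 1167 and 1224 CPM in LYVE1+ and 1441, 1520 and 1583 CPM in LYVE1- aorta. In fat it had 582, 683 and 653 CPM in LYVE1+ and 1000.0, 1192 and 1168 CPM in LYVE1- libraries. It was lower in LYVE1+ in both tissues without overlap, and called in fat (-0.81, SE 0.14, adjusted p = 0.00554) and not in aorta (-0.32, adjusted p = 0.395). The fat call was lost when only the fat groups were fitted (adjusted p = 0.0846). Fcrls was also higher in LYVE1+ aorta than in LYVE1+ fat (0.92, adjusted p = 0.00379). The B cell genes Fcer2a, Fcmr, Fcrl1 and Fcrla reached 64.1, 86.8, 29.6 and 22.3 CPM in LYVE1+ fat library 1, and none was called. The alpha and beta chains of the high-affinity IgE receptor, which also use Fcer1g in mast cells, were near 0, with Fcer1a at or below 1.26 CPM and Ms4a2 without a count in any library. The 7 mast cell markers, these chains included, summed to 1.85 to 12.3 CPM in LYVE1+ and 46.9 to 74.8 CPM in LYVE1- aorta, and to 2.22 to 48.0 CPM in LYVE1+ and 10.4 to 17.4 CPM in LYVE1- fat.

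**Figure D5:**
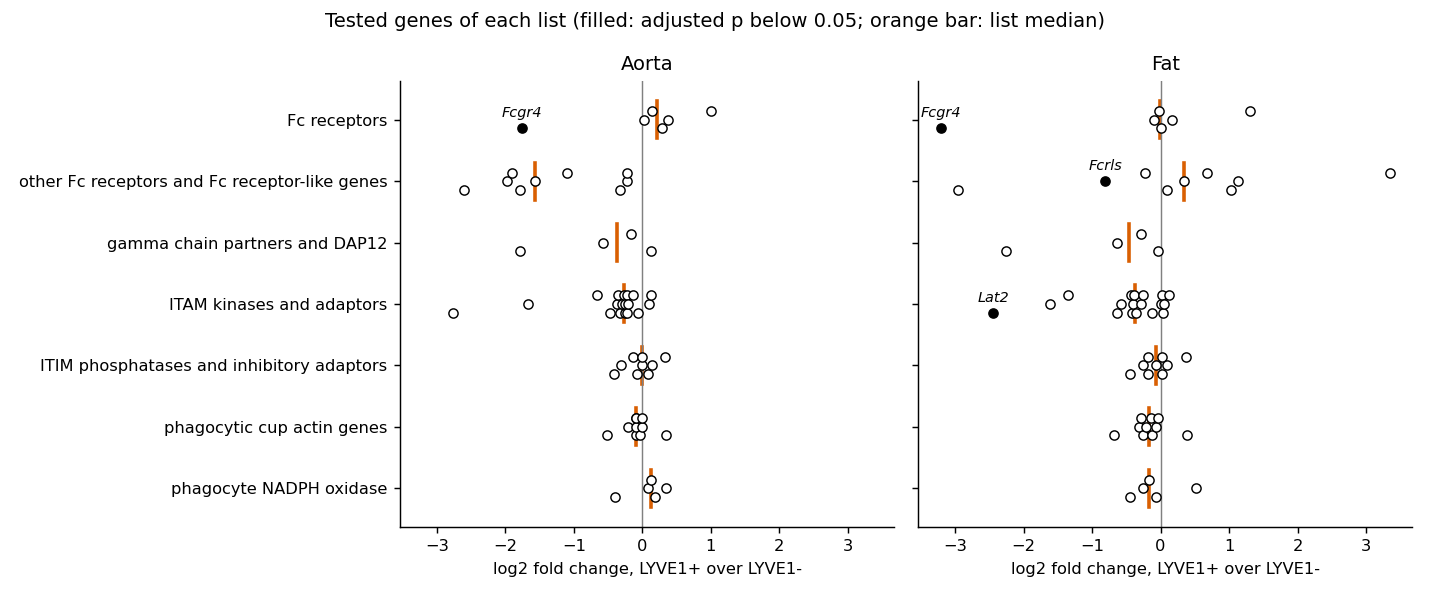
Log2 fold change, LYVE1+ over LYVE1- (x axis), of the tested genes of each list (rows) in aorta (left) and fat (right). Filled points passed an adjusted p of 0.05 and are named, and orange bars are list medians. Fcgr4 is filled in both tissues, and Fcrls and Lat2 in fat.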

How the data were processed

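Full-length, unstranded Smart-seq2 libraries from 2 ng of RNA were sequenced as paired reads of 51 cycles, per the labels' protocols, which name a pair of sequencer models without saying which library ran on which. Per the submitters' processing notes, STAR 2.5.2b, featureCounts 1.5.0 and edgeR 3.14.0 were used with GRCm38. Not given in the sources used here are the annotation release, the strand setting and the treatment of multiply mapped reads. The deposited count table holds raw counts. The deposited log2 CPM table was checked against it and differed from edgeR's log2 CPM (TMM, prior count 0.25) by at most 4.97e-14. Symbols came from GENCODE M21 for 46005 genes.

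A quasi-likelihood model with TMM factors, edgeR's low count filter and a mean for each group was fitted to the 12 libraries (edgeR 4.0.16, R 4.3.3). The fit tested 14216 genes, among them all 6 Fc receptor genes, with 8 residual degrees of freedom. Tests were two-sided, and a call is a Benjamini-Hochberg adjusted p below 0.05. The script was tested on simulated data. No pair of replicate libraries agreed within counting noise. Same-numbered libraries deviated together in fat (correlations of deviations 0.486, 0.279 and 0.184) but not in aorta (-0.0441, -0.0767 and -0.17). In fat, numbers 2 and 3 also correlated with each other (0.192 and 0.225), so the numbers do not separate number 2 from number 3. The labels do not say what a shared number marks, so the fit above held no block for it. Its calls in fat therefore leave out any pairing, and the replicate block was run as an alternative. The columns of all libraries were mapped by their labels.

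The members and lists were chosen with earlier results of these data known. Named genes are the 6 members, up to 3 called genes of each list with the smallest adjusted p in each comparison of 2 groups (the 2 most abundant where none was called) and the 3 genes nearest to each member called in a comparison of 2 groups, which was Fcgr4. Values of Syk, B2m, Clec4e in the average, Plcg2, the B cell genes and the markers are given beside them, and 1 gene that the rule names is not reported here. Alternatives were RLE factors, DESeq2 1.42.0, no filter, a filter of 5 CPM, only the groups compared, a replicate block, the identifier prefix as a covariate, both fat libraries numbered 1 left out, each library left out, and other gene lengths for the ratios.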

Additional observations from a re-analysis of the deposited data

How the results depend on the processing

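The number of Fc receptor genes called in aorta was 1, and 2 when only the groups compared were fitted, with the replicate block and without both fat libraries numbered 1 (Fcgrt added), 0 with the prefix covariate, and 0 to 1 with each library left out. In fat it was 1, and 2 with DESeq2, no filter, the stricter filter, the replicate block and without both fat libraries numbered 1 (Fcgrt added), and 1 to 2 with each library left out. The average had 2, 1 with the prefix covariate and 1 to 2 with each library left out. Between tissues in LYVE1+ cells it was 0, and 1 (Fcgr4) with DESeq2, no filter and without both fat libraries numbered 1, and 0 to 1 with each library left out. The causes of these changes were not tested. In aorta and between tissues the numbers share only a number: the block gave 243 calls over all genes in aorta against 77, and changed no other call of these genes. The prefix covariate left 2 calls over all genes in aorta against 77, and DESeq2 gave 360. With each library left out, calls over all genes ran from 23 (without LYVE1- aorta library 1) to 210 (without LYVE1+ fat library 1) in aorta, from 219 (without LYVE1+ fat library 2) to 1025 (without LYVE1+ fat library 1) in fat against 558, from 494 to 1635 in the average against 901 (without LYVE1- aorta library 1 and without LYVE1+ fat library 1), and from 0 to 47 in the difference between tissues against 22. Aorta over fat ran from 172 to 538 calls in LYVE1+ cells against 426, and from 98 to 531 in LYVE1- cells against 353. Without both fat libraries numbered 1 the LYVE1 comparison had 566 calls for aorta, 887 for fat, 1571 averaged and 84 for its difference between tissues. Aorta over fat then had 890 in LYVE1+ and 1024 in LYVE1- cells.

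Every change of sign was in a comparison without a call for that gene. Without both fat libraries numbered 1, Fcgr1 in fat was at 0.02, Fcgr3 in fat at -0.021, Inpp5d in fat at 0.014, Fcgr2b in LYVE1+ aorta over fat at -0.18 and Fcgr3 in LYVE1- aorta over fat at -0.17. The prefix covariate gave 0.04 for Fcgr2b in LYVE1- aorta over fat, -0.017 for Dok2 in aorta and 0.08 for Inpp5d in aorta. The replicate block gave 0.007 for Fcgrt in LYVE1- aorta over fat and 0.001 for Inpp5d in aorta, and the stricter filter -0.008 for Fcgr1 in the average. With each library left out, LYVE1+ against LYVE1-, Fcgr1 ran from -0.11 to 0.15 in aorta, -0.25 to 0.26 in fat and -0.11 to 0.14 in the average. Fcgr2b ran from -0.007 to 0.41 in fat, Fcgr3 from -0.24 to 0.23 in fat, and Fcer1g from -0.26 to 0.046 in fat and -0.059 to 0.094 in the average. Tyrobp ran from -0.097 to 0.021 in fat, and Inpp5d from -0.065 to 0.10 in aorta and -0.14 to 0.06 in fat. The difference between tissues ran from -0.22 to 0.28 for Fcgr1, -0.12 to 0.29 for Fcgr2b and -0.56 to 0.027 for Fcgrt. Aorta over fat ran from -0.18 to 0.20 for Fcgr2b in LYVE1+ cells, and in LYVE1- cells from -0.24 to 0.08 for Fcgr2b, -0.17 to 0.26 for Fcgr3, -0.20 to 0.10 for Fcer1g and -0.40 to 0.16 for Fcgrt.

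With 3 libraries a group, intervals of the 4 uncalled genes reached up to 0.97 on the log2 scale by sort. Fcgr4 rests on 44 to 61 counts per LYVE1+ fat library.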
